A study of Homo sapiens with 4 samples.

Results

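UNC13A, UNC13B, KALRN, AGRN, SLC24A3, PFKP, ACTL6B, CYFIP2 and ATG4B are 9 genes whose messages have been reported as splicing targets of TDP-43 in human neurons. They were chosen by gene symbol, with earlier results of these data known, as targets beyond the loci already called. The number of calls among them therefore does not stand for known targets at large. All 9 were found in the gene table and the annotation. In the deposited annotation they carry 160 of 392871 transcripts. Of these 160 transcripts, 56 had reads in at least 1 library and 6 were unannotated: 5 of ACTL6B and 1 of CYFIP2.

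TDP-43, encoded by TARDBP, is a nuclear RNA-binding protein that binds UG-rich stretches of pre-mRNA. When it is lost from the nucleus, exons that it normally keeps out of messages (cryptic exons) can be spliced in, others can be skipped, and early polyadenylation sites can be used. Many such exons shift the reading frame or hold a stop codon, so the message may be degraded and the gene's level may fall. The 9 genes do different work in neurons. UNC13A and UNC13B prime synaptic vesicles for release, agrin (AGRN) organises synapses, kalirin (KALRN) and CYFIP2 act on the actin of dendritic spines, SLC24A3 exchanges calcium for sodium, PFKP is a phosphofructokinase of glycolysis, ACTL6B is a neuronal subunit of a chromatin remodeller and ATG4B is a protease of autophagy.

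Long-read complementary DNA (PacBio Iso-Seq) was sequenced from neurons induced from the human stem cell line KOLF2.1J, an established line of induced pluripotent cells. All groups carried an NGN2 gene driven by doxycycline (2 µg/mL), which turns stem cells into neurons, and a constitutive dCas9-BFP-KRAB construct for CRISPR interference, which silences the promoter that a guide RNA points to. The control group received a non-targeting guide, and the knockdown group (TDP-43 CRISPRi) a guide against TARDBP. The azacytidine group had the control background and 5 µM 5-azacytidine, a cytidine analogue that blocks DNA methylation, for 72 hours, and the combined group had both treatments. Guides were delivered by lentivirus and selected as stable pools, not clones. The labels give harvest on day 12 or day 15 without saying which applied, and each group had 1 library. No difference below therefore has a replicate check, and every p-value compares the reads of 2 libraries, not the conditions.

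Reads assigned to genes numbered between 466337 and 767621 per library. The targeted gene, TARDBP, had 104 reads in the control library, 72 in the knockdown library, 73 in the azacytidine library and 43 in the combined library. Its level was 62.6% of the reference in the knockdown pair without azacytidine (exact binomial test, adjusted p = 0.017) and 60.1% in the pair with it (adjusted p = 0.0573). The neuronal label was read against marker genes. All 12 pan-neuronal markers had reads in every library, with summed levels from 2862 to 3725 CPM (reads scaled to the effective size of the library). Of 11 cortical glutamatergic markers, between 1 and 4 were at 0 in a library, and NEUROD6 was at 0 in all of them, while the peripheral neuron marker ISL1 had from 66 to 190 reads. Markers of neural progenitors and dividing cells summed to 1297 CPM in the control library and to 1221 CPM with the knockdown, but to 202 in the azacytidine library and 151 in the combined library. These markers move with every azacytidine result below, and their part in those results was not tested. The share of gene reads that the authors' quantification assigned to no transcript was 36.1% in the control library, 41.5% in the knockdown library, 31.9% in the azacytidine library and 39.6% in the combined library.

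A gene was called where its adjusted p was under 0.05 and its absolute log2 ratio was at least 1, in the same direction, in both of 2 library pairs that share no library. By this rule the knockdown called 79 of 8145 genes tested (0.97%), and 0 of the 7 genes of the set that had the mean of 20 reads needed for the test. Azacytidine called 798 of 8145 genes (9.8%), and 1 of the 7, PFKP. With the adjusted p alone, in both pairs and with no threshold on size, the knockdown raised 2.77% of all genes and lowered 0.749%, and among the 7 it raised AGRN. With azacytidine these shares were 6.31% and 9.96%, and among the 7 PFKP rose and KALRN fell. The median log2 ratio of the 7 genes with the knockdown was 0.10 without and 0.16 with azacytidine, beside 0.18 and 0.05 for all genes tested. The first of the medians over all genes was −0.04 when libraries were scaled by total gene reads, and the knockdown calls then split into 27 higher and 55 lower in place of 51 and 28.

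**Figure D1:**
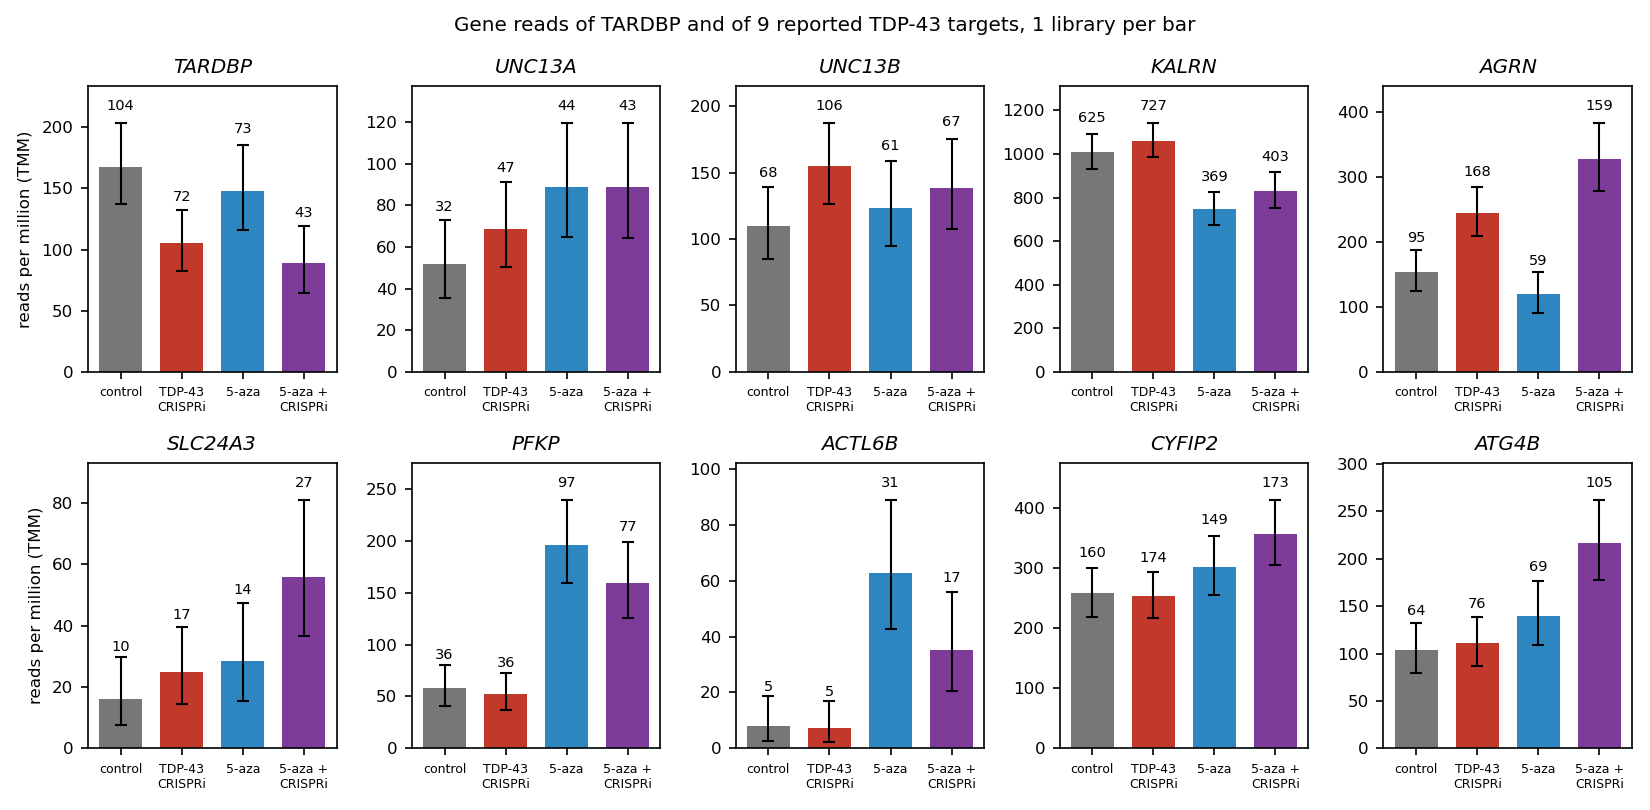
Level of TARDBP and the 9 genes in each library, in CPM scaled by TMM effective library sizes. Each bar is 1 library, the number above it is its read count, and the error bars are exact 95% intervals for counting error only. AGRN stands higher in both knockdown libraries than in their references, and PFKP and ACTL6B stand higher in both azacytidine libraries.

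UNC13A encodes Munc13-1, which readies vesicles for fusion at excitatory synapses. Its reported cryptic exon lies between exons 20 and 21, and the deposited annotation places 0 exons of any UNC13A transcript inside that intron (chr19:17641557-17642844, hg38, minus strand, 1288 bases). The coding sequence on each side of that junction is shown to place the event, with the end of exon 20 in capitals.
UNC13A: ACCTGTCTGCATGAGaacctgttccacttc
The sequence comes from GENCODE 29, built on GRCh38. No unannotated transcript of UNC13A was in the annotation, so 0 of 24, 21, 35 and 36 transcript reads (control, knockdown, azacytidine and combined library) belonged to one. This 0 follows from the annotation and sets no limit on the share of messages with the cryptic exon. Transcript ENST00000519716.7, the full coding form with 44 exons, took 22, 21, 33 and 36 of those reads, and no read was full-length.

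UNC13A was read at 32 reads in the control library, 47 in the knockdown library, 44 in the azacytidine library and 43 in the combined library, or 51.6, 68.6, 89.0 and 88.7 CPM. The control library was the lowest and the azacytidine and combined libraries were alike. No neighbours in this order differed: the exact binomial test gave adjusted p = 1.0, 0.359 and 0.431 going down from the highest. The knockdown log2 ratio was 0.40 (95% interval −0.27 to 1.11, adjusted p = 0.431) without azacytidine and 0 (−0.65 to 0.63, adjusted p = 1.0) with it. Both intervals include 0, so neither a rise nor a fall of UNC13A with the knockdown could be told from counting error.

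The share of UNC13A gene reads counted for no transcript was also compared. It is the gene count less the summed counts of the gene's transcripts, and the files do not say which reads make up this remainder. They were 8 of 32 (25%) in the control library, 26 of 47 (55.3%) in the knockdown library, 9 of 44 (20.5%) in the azacytidine library and 7 of 43 (16.3%) in the combined library. The knockdown library stood above all others, and the combined library was the lowest. The rise of 30.3 percentage points with the knockdown had an adjusted p of 0.0825 by Fisher's exact test, and with azacytidine present the share moved by −4.2 points (adjusted p = 1.0). Between the knockdown and the combined library it fell by 39.0 points (adjusted p = 0.00456).

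UNC13B encodes Munc13-2, a relative of Munc13-1 with the same function at other synapses. Its reported target is a short exon that is skipped in most messages. The exon of 23 bases at chr9:35364545-35364567 (hg38, plus strand) is the exon of that kind in the annotation, and its length is not a multiple of 3. It is shown in capitals between 15 bases of each neighbouring exon of transcript ENST00000634487.1, from GENCODE 29.
UNC13B: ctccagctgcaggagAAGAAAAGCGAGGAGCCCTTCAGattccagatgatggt
Reads of transcripts with this exon were 0 of 52 in the control library, 2 of 75 (2.67%) in the knockdown library, 0 of 49 in the azacytidine library and 6 of 51 (11.8%, 95% Wilson interval 5.51% to 23.4%) in the combined library. Both libraries with the knockdown held such reads and both libraries without it held none. The exon reached the minimum of 5 reads through the libraries with the knockdown alone, so this contrast is not separate support. Uniquely assigned reads, a part of the same reads, gave the same order, with 0 of 8, 1 of 18, 0 of 11 and 5 of 20. Neither difference passed Fisher's exact test after adjustment over 20511 internal exons: the knockdown added 2.67 points without azacytidine (adjusted p = 1.0) and 11.8 points with it (adjusted p = 0.469). The zero counts allow shares of up to 5.77% in the control library and 6.12% in the azacytidine library. A 6-base exon at chr9:35371934-35371939 was carried by 0, 2, 0 and 5 reads, nearly the same reads.

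Of the gene as a whole, 68, 106, 61 and 67 reads were counted across the control, knockdown, azacytidine and combined libraries, or 109.7, 155, 123 and 138 CPM. The knockdown library was the highest and the control library the lowest, and no neighbours differed (exact binomial test, adjusted p = 0.616, 0.768 and 0.713 from the highest down). The knockdown log2 ratios were 0.49 (adjusted p = 0.107) and 0.16 (adjusted p = 0.768).

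A transcript of UNC13B moved with azacytidine. Transcript ENST00000635942.2, which holds a long internal exon of 8247 bases at chr9:35300166-35308412, had 9 of 52 reads (17.3%) in the control library and 18 of 75 (24.0%) in the knockdown library. It had 0 of 49 and 0 of 51 in the azacytidine and combined libraries. Uniquely assigned reads were 1 of 8 (control), 5 of 18 (knockdown), 0 of 11 (azacytidine) and 0 of 20 (combined). The transcript reached the minimum of 10 reads through the 2 libraries without azacytidine alone, so its test is not separate support. Its share was lower with azacytidine by 17.3 points (Fisher's exact test, adjusted p = 0.0474) and by 24.0 points with the knockdown present (adjusted p = 0.00141), which made it 1 of 2 transcripts of the set called with azacytidine. The same reads, tested as inclusion of the long exon among all internal exons, gave an adjusted p of 0.0851 without and 0.00319 with the knockdown, so the exon was not called. Of 15531 transcripts tested, azacytidine called 175 (1.13%) in either direction and the knockdown 109 (0.702%). The set had 24 of them, in 7 genes: 2 were called lower with azacytidine (0.637% of all transcripts) and 0 with the knockdown. In the knockdown pair without azacytidine alone, 3 of the 24 rose and 2 fell at the adjusted threshold, beside 3.59% and 3.57% of all. The main forms ENST00000619578.4 and ENST00000378495.7 had 25, 33, 37 and 33 reads and 18, 22, 12 and 13 reads across the 4 libraries. The UNC13B call was lost when genes with a mean of at least 10 transcript reads were admitted (adjusted p = 0.0574 in the pair without the knockdown). A 57-base exon near the end of the gene (chr9:35401951-35402007) was in 48.1% and 46.7% of spanning reads without azacytidine and in 75.5% and 74.5% with it. These rises of 27.4 and 27.8 points did not pass Fisher's exact test (adjusted p = 0.173 and 0.08).

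The release machinery around these 2 proteins was read through a list of 29 further genes of vesicle priming and fusion, of which 26 were tested. With the knockdown, 2 rose in both pairs at the adjusted threshold, RIMS1 (log2 ratios 0.74 and 0.77), an active zone scaffold, and CADPS (0.52 and 0.92), a priming factor of dense-core vesicles. VAMP2, the vesicle SNARE, fell in both (−0.80 and −0.92), and 0 were called, beside 2.77% of all genes higher, 0.749% lower and 0.97% called. With azacytidine 7 rose and 1 fell, beside 6.31% and 9.96% of all genes. Genes called included NAPA (1.46 and 1.94), which takes SNARE complexes apart, the calcium sensors DOC2A (1.17 and 1.30) and DOC2B (1.55 and 1.16), and CADPS2 (−3.37 and −5.09).

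AGRN was the 1 gene of the set whose level rose with the knockdown in both pairs. Agrin is a large heparan sulphate proteoglycan of the basal lamina and of synapses, and its neural form clusters acetylcholine receptors through LRP4 and MuSK. The gene (chr1:1020120-1056119, plus strand) had 95 reads in the control library, 168 in the knockdown library, 59 in the azacytidine library and 159 in the combined library, or 153, 245, 119 and 328 CPM. Both knockdown libraries stood above both libraries without the knockdown. The knockdown log2 ratio was 0.67 (95% interval 0.31 to 1.06, adjusted p = 0.00237) without azacytidine and 1.45 (1.02 to 1.91, adjusted p = 4.03e-10) with it, by the exact binomial test. These ratios are 160.0% and 274.8% of the reference library. The first is under the size threshold, so the gene is not called, and under scaling by total gene reads it was 0.45 with an adjusted p of 0.0791. With size factors of DESeq2 it was 0.57 (adjusted p = 0.0165). The difference between the ratios was 0.78 with a standard error of 0.29 and missed the threshold (Poisson Wald test, adjusted p = 0.0597). In an additive edgeR model over the 4 libraries, AGRN had a log2 ratio of 1.06 and an adjusted p of 0.406. In bulk RNA, fewer cells of a type and less RNA per cell cannot be told apart, for this gene and those below.

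Going down from the highest level of AGRN, the combined library differed from the knockdown library (adjusted p = 0.0259) and the knockdown library from the control library (adjusted p = 0.00237). The control and azacytidine libraries did not differ (exact binomial test, adjusted p = 0.297). Between the azacytidine pairs the ratio was −0.36 without the knockdown and 0.42 with it.

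Neural agrin is set apart by 3 short exons near the C-terminus, the exon of the y site, which takes part in heparin binding, and the exons of the z site, which receptor clustering needs. Their share in estimated counts differed between the libraries with and without azacytidine. The 3 exons are shown in capitals between 15 bases of their neighbours in transcript ENST00000419249.2 (GENCODE 29, GRCh38, plus strand). They lie at chr1:1051032-1051043 (12 bases), chr1:1051993-1052016 (24 bases) and chr1:1053461-1053493 (33 bases), and each keeps the reading frame.
AGRN y exon: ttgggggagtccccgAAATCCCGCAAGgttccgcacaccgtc
AGRN first z exon: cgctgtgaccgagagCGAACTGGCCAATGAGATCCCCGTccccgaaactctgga
AGRN second z exon: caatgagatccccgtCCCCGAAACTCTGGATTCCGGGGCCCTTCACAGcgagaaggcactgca
The same transcripts hold all 3, so their reads are the same: 21 of 61 (34.4%) in the control library, 45 of 102 (44.1%) in the knockdown library, 26 of 30 (86.7%) in the azacytidine library and 51 of 59 (86.4%) in the combined library. Both azacytidine libraries stood above both others, and their Wilson intervals (70.3% to 94.7% and 75.5% to 93.0%) did not meet those of the others (23.7% to 47.0% and 34.9% to 53.8%). Inclusion rose with azacytidine by 52.3 points (Fisher's exact test, adjusted p = 0.000291) and, with the knockdown present, by 42.3 points (adjusted p = 1.16e-05). With the knockdown it moved by 9.7 points (adjusted p = 0.889) and −0.3 points (adjusted p = 1.0).

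Across all internal exons, azacytidine called 120 of 20511 (0.585%) and the knockdown 43 (0.21%). The set had 38 of them, with 3 called higher with azacytidine (0.4% of all exons), all of them these linked exons of AGRN, and 0 called with the knockdown. In the knockdown pair without azacytidine alone, 3 of the 38 rose and 2 fell, beside 1.45% and 1.41% of all. The calls rest on how estimated counts divide reads that fit several transcripts: uniquely assigned reads of transcripts across the y and z sites were 0 of 1, 3 of 5, 1 of 1 and 3 of 3, too few to repeat the test, and 11.8% of all AGRN transcript reads were unique. A read counted for a transcript need not cover the exon.

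Among the transcripts of AGRN, ENST00000379370.7, with 36 exons and none of the 3, had 40 of 67 reads (59.7%) in the control library, 57 of 109 (52.3%) in the knockdown library, 1 of 35 (2.86%) in the azacytidine library and 4 of 69 (5.80%) in the combined library. It was nearly absent from both azacytidine libraries, with differences of −56.8 points (Fisher's exact test, adjusted p = 5.73e-07) and −46.5 points (adjusted p = 4.88e-09), and is the other transcript called. ENST00000651234.1, which starts at the downstream first exon (chr1:1034106-1034703) and holds the 3 exons, had 11, 45, 26 and 34 reads when the libraries are taken in that order. It rose by 57.9 points with azacytidine without the knockdown (adjusted p = 2.15e-06) and by 8.0 points with it (adjusted p = 0.823). The 39-exon form ENST00000620552.4, which holds the 3 exons and starts upstream, had 11, 0, 0 and 17 reads, and the 3-exon fragment ENST00000461111.1 had 6, 7, 5 and 10. Reads of transcripts with the upstream first exon (chr1:1020120-1020373) made up 82.0% (control) and 55.9% (knockdown) of the spanning reads without azacytidine, against 3.33% in the azacytidine and 35.6% in the combined library.

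**Figure D2:**
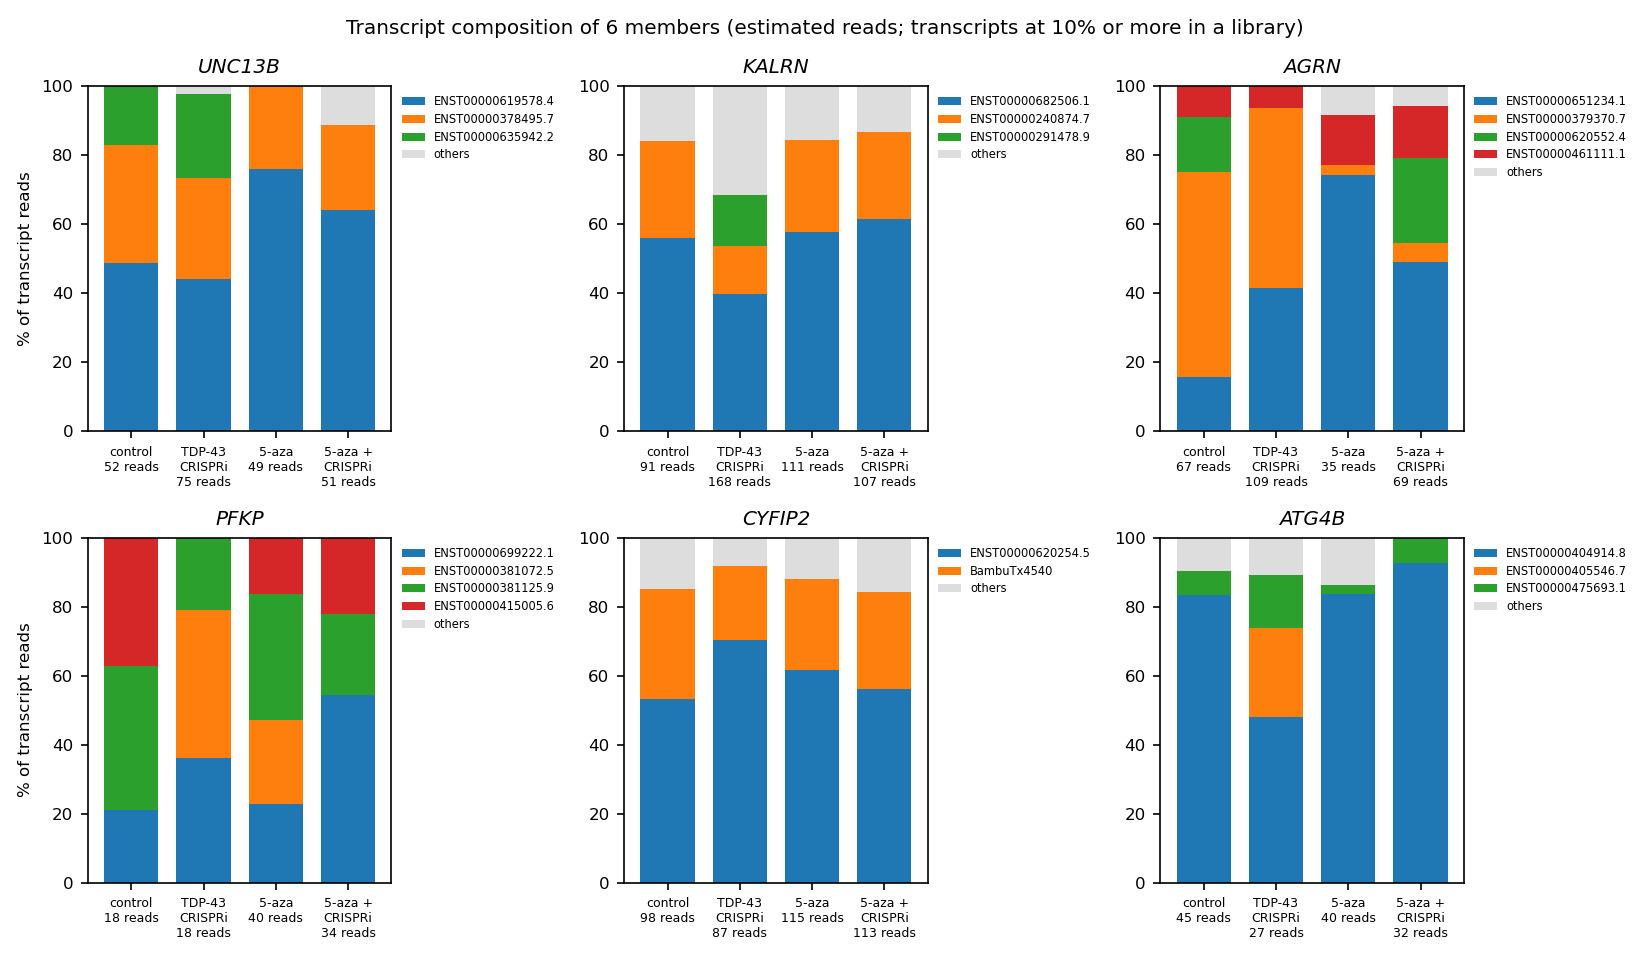
Share of transcript reads taken by each transcript of 6 genes, in percent, for the 4 libraries, with the number of transcript reads under each bar. AGRN transcript ENST00000379370.7 takes over 50% of reads without azacytidine and under 6% with it, and UNC13B transcript ENST00000635942.2 has reads only in the 2 libraries without azacytidine.

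Of 13 further genes of agrin signalling, 7 were tested. LAMB1, a laminin chain, fell with the knockdown in both pairs (log2 ratios −0.48 and −1.09), and LAMC1, another laminin chain, was called lower with azacytidine (−1.33 and −1.03). Agrin's receptor LRP4, chosen here after its values were seen, had a mean under the test's minimum, with 14 reads in the control library, 50 in the knockdown library and 0 in each azacytidine library. MUSK, DOK7 and RAPSN, its partners at the muscle membrane, were too low to test.

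Kalirin is a guanine exchange factor for Rac that shapes dendritic spines. KALRN (chr3:124033369-124726325, plus strand) was read at 625, 727, 369 and 403 reads across the control, knockdown, azacytidine and combined libraries, or 1008, 1061, 747 and 831 CPM. Both azacytidine libraries were below both others. KALRN fell by 0.43 on the log2 scale with azacytidine (exact binomial test, adjusted p = 5.52e-05) and by 0.35 with the knockdown present (adjusted p = 0.000417), short of the size threshold. The second fall was 0.17 with an adjusted p of 0.127 when scaled by total gene reads. With the knockdown its ratios were 0.07 (adjusted p = 0.579) and 0.15 (adjusted p = 0.358), and the first was negative under total reads and under DESeq2's size factors. In the order of levels the control library differed from the combined library (adjusted p = 0.00937), and no other neighbours did.

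Most KALRN reads were counted for no transcript: 534 of 625 (85.4%) in the control library, 559 of 727 (76.9%) in the knockdown library, 258 of 369 (69.9%) in the azacytidine library and 296 of 403 (73.4%) in the combined library. The control library was the highest. The share fell by 8.5 points with the knockdown (Fisher's exact test, adjusted p = 0.00188) and by 15.5 points with azacytidine (adjusted p = 1.56e-06). In the second pair of each treatment it moved by 3.5 points (adjusted p = 0.678) and −3.5 points (adjusted p = 0.556).

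Among the KALRN reads counted for a transcript, several minor forms were at 0 in the control library and had their highest count in the knockdown library. ENST00000291478.9, a form that starts downstream at position 124584659, had 25 of 168 reads there and 0 of 91, 111 and 107 across the control, azacytidine and combined libraries. Its difference was 14.9 points from the control library (Fisher's exact test, adjusted p = 0.000505) and 0 in the pair with azacytidine, so it is not called. None of its 25 reads was uniquely assigned. The transcript reached the minimum of 10 reads through the knockdown library alone, so its p-value is not separate support. In this transcript 2 internal exons each begin 3 bases further upstream than in the main form ENST00000682506.1, shown in capitals between 15 bases of exon on each side (GENCODE 29, GRCh38, plus strand).
KALRN chr3:124633849-124633851: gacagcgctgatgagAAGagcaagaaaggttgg
KALRN chr3:124674361-124674363: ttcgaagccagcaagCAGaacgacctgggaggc
The earlier exon begins at the same base in other forms too, among them ENST00000684360.1, which had 2, 4, 0 and 0 reads. The later of these longer exons had 0 of 51, 25 of 92 (27.2%), 0 of 64 and 0 of 66 spanning reads, and the earlier had 2 of 53, 29 of 95 (30.5%), 1 of 65 and 0 of 66. Their difference from the control library passed Fisher's exact test (adjusted p = 0.000516 and 0.00364), and neither rose in the pair with azacytidine (adjusted p = 1.0 for both). Most of these reads are those of ENST00000291478.9 counted again, and none was uniquely assigned. Both exons reached the minimum of 5 reads through the knockdown library alone. The exon tests therefore add no support to the test of that transcript.

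ENST00000683280.1, a short form of 4 exons that ends early, had 0, 11, 4 and 1 reads across the control, knockdown, azacytidine and combined libraries, all uniquely assigned. It holds an exon of 1094 bases (chr3:124100328-124101421) that runs on past the end of the annotated 209-base exon. The control library had none. The rise of 6.55 points with the knockdown did not pass Fisher's exact test (adjusted p = 0.101). ENST00000460856.5 had 0, 12, 7 and 2 reads, ENST00000682277.1 had 0, 5, 0 and 2, and ENST00000682890.1 and ENST00000684374.1 each had 0, 2, 0 and 0. The main forms ENST00000682506.1, with 60 exons, and ENST00000240874.7, with 34, had 51, 67, 64 and 66 reads and 26, 23, 29 and 27 reads. The share of the first rose by 21.8 points from the knockdown to the combined library (adjusted p = 0.011) and did not pass in the other pairs.

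CYFIP2 is a subunit of the WAVE complex, through which Rac drives branched actin, and it binds the fragile X protein FMR1. Its level did not pass the test with the knockdown in either pair: it had 160, 174, 149 and 173 reads across the control, knockdown, azacytidine and combined libraries, or 258, 254, 302 and 357 CPM. The combined library was the highest, and no neighbours in the order differed (exact binomial test, adjusted p = 0.348, 0.357 and 0.974). The knockdown ratios were −0.02 (95% interval −0.34 to 0.30) and 0.24 (−0.08 to 0.57). With azacytidine they were 0.22 (adjusted p = 0.357) and, with the knockdown, 0.49 (adjusted p = 0.00531).

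No exon of CYFIP2 passed the test in any pair. Here and in the other genes, only exons in the deposited annotation could be tested. An exon absent from it could not be seen, so its use was not tested. The 78-base exon at chr5:157294783-157294860 was in 89 of 98 (90.8%), 82 of 87 (94.3%), 106 of 115 (92.2%) and 102 of 113 (90.3%) spanning reads, and Fisher's exact test gave an adjusted p of 1.0 in every pair. The main form, ENST00000620254.5, had 52, 61, 71 and 63 reads. The unannotated transcript of CYFIP2, BambuTx4540, differs by a longer first exon (chr5:157266079-157266584, 506 bases). It took 31 of 98 reads (31.6%) in the control library, 19 of 87 (21.8%) in the knockdown library, 30 of 115 (26.1%) in the azacytidine library and 32 of 113 (28.3%) in the combined library. The control library was the highest. With the knockdown the share moved by −9.8 points (Fisher's exact test, adjusted p = 0.571) without azacytidine and by 2.2 points (adjusted p = 1.0) with it. Reads in no transcript were 38.8%, 50%, 22.8% and 34.7% of its gene reads. The knockdown libraries were each above their reference, by 11.2 points (Fisher's exact test, adjusted p = 0.217) and 11.9 points (adjusted p = 0.161), and azacytidine lowered the share by 16.0 points (adjusted p = 0.0479) and 15.3 points (adjusted p = 0.0511).

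Among 18 further genes of the WAVE complex and its partners, 15 were tested. ACTR3, a core subunit of the Arp2/3 complex, rose with the knockdown in both pairs (0.50 and 0.59). WASF1 (−0.52 and −0.92) and WASF3 (−0.76 and −1.27), both WAVE proteins, fell with azacytidine. The knockdown and azacytidine each called 0 of the 15, beside 0.97% and 9.8% of all genes.

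SLC24A3 encodes NCKX3, which moves calcium out of cells in exchange for sodium. It had few reads, 10 in the control library, 17 in the knockdown library, 14 in the azacytidine library and 27 in the combined library, or 16.1, 24.8, 28.3 and 55.7 CPM. Its mean of 17.0 reads was under the minimum of 20, so it was not tested. The combined library was the highest, the knockdown log2 ratios were 0.59 (95% interval −0.59 to 1.91) and 0.95 (−0.01 to 2.02), and both intervals reach below 0. The annotation holds 1 transcript of it, so no exon choice can be read. That transcript took 10, 11, 9 and 18 reads, and the reads in no transcript were 0 of 10, 6 of 17 (35.3%), 5 of 14 (35.7%) and 9 of 27 (33.3%). The control library was the only one with none, and its zero allows up to 30.0%. Of 8 further sodium-calcium exchangers 3 were tested, and SLC8A2, an exchanger of the neuronal membrane, was called higher with azacytidine (1.44 and 1.13).

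PFKP, the platelet-type phosphofructokinase of the committed step of glycolysis, was the gene called with azacytidine. It had 36 reads in the control library, 36 in the knockdown library, 97 in the azacytidine library and 77 in the combined library, or 58.1, 52.5, 196 and 159 CPM. Both azacytidine libraries were above both others. The azacytidine log2 ratio was 1.74 (95% interval 1.19 to 2.35, exact binomial test, adjusted p = 1.38e-09) and, with the knockdown, 1.59 (1.01 to 2.21, adjusted p = 1.52e-07), or 338.0% and 302.4% of the reference. With the knockdown it was −0.14 (adjusted p = 0.868) and −0.30 (adjusted p = 0.405). In the order of levels only the step from the combined to the control library differed (adjusted p = 3.4e-06). An additive DESeq2 model gave azacytidine a ratio of 1.68 with an adjusted p of 0.0608, and an additive edgeR model called it.

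PFKP has a pair of alike exons of 153 bases, exon 16 at chr10:3119892-3120044 and exon 17 at chr10:3125097-3125249, of which 88 bases (57.5%) are the same at the same position. The annotation has transcripts with the earlier exon alone and 1 with both. GENCODE 29 also has a form with the later exon alone, and both exons there sit between the same neighbouring sequences, shown in lower case (GRCh38, plus strand).
PFKP exon 16: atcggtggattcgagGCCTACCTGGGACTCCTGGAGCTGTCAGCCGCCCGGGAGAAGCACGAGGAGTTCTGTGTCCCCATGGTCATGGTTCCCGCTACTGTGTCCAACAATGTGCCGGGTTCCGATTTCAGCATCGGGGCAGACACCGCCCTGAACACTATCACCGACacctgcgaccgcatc
PFKP exon 17: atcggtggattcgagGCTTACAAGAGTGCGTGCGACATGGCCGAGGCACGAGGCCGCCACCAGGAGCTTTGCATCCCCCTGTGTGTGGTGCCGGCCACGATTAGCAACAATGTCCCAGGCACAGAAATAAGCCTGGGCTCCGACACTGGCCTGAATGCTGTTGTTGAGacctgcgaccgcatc
Reads of transcripts with the later exon were 4 of 18 (22.2%) in the control library, 6 of 10 (60.0%) in the knockdown library, 9 of 30 (30.0%) in the azacytidine library and 18 of 34 (52.9%) in the combined library. Both knockdown libraries were above both libraries without it, also in uniquely assigned reads (2 of 4, 5 of 6, 6 of 10 and 10 of 13). The differences of 37.8 points (Fisher's exact test, adjusted p = 0.649) and 22.9 points (adjusted p = 0.762) did not pass the test, and all 4 Wilson intervals overlap the range from 36.7% to 45.2%.

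A short PFKP form, ENST00000381072.5, with 6 exons from position 3129007, moved in opposite directions with the knockdown. It had 0 of 18 reads in the control library, 8 of 18 (44.4%) in the knockdown library, 10 of 40 (25%) in the azacytidine library and 0 of 34 in the combined library. The knockdown changed it by 44.4 points without azacytidine (Fisher's exact test, adjusted p = 0.0431) and by −25 points with it (adjusted p = 0.0347). None of these reads was uniquely assigned. The longer forms had few reads: ENST00000381125.9 had 7, 4, 15 and 8, ENST00000415005.6 had 7, 0, 6 and 8, and ENST00000699222.1, which holds both alike exons, had 4, 6, 9 and 18.

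Of 19 further glycolytic enzymes 14 were tested. None passed with the knockdown in both pairs, beside 2.77% of all genes higher and 0.749% lower. GPI, the isomerase just before phosphofructokinase, rose with azacytidine in both (0.58 and 0.53), beside 6.31% of all genes. The relatives PFKL and PFKM had 42, 60, 44 and 59 reads and 54, 63, 39 and 48 reads across the control, knockdown, azacytidine and combined libraries, and their adjusted p was 0.147 or more in every pair.

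ACTL6B has an unannotated exon whose reads lay mostly in the 2 knockdown libraries. It encodes BAF53b, an actin-related subunit that replaces ACTL6A in the BAF chromatin remodeller as progenitors become neurons. The unannotated exon of 69 bases lies at chr7:100650575-100650643 (hg38, minus strand), inside the intron from 100650136 to 100655018. It does not overlap an annotated exon, and its length keeps the frame. The junction that it interrupts is shown with the end of the upstream exon in capitals (GENCODE 29, GRCh38).
ACTL6B: ATGTCCGAGGCTCCGtggaacacacgggcc
Transcripts with the exon had 0 of 5 reads in the control library, 4 of 5 (80.0%, 95% Wilson interval 37.6% to 96.4%) in the knockdown library, 1 of 17 (5.88%, 1.05% to 27.0%) in the azacytidine library and 6 of 10 (60.0%, 31.3% to 83.2%) in the combined library. Both knockdown libraries were high and both others low. In the control library 0 of 5 allows up to 60.0%. Uniquely assigned reads were 0 of 4, 2 of 3, 1 of 13 and 3 of 5.

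With so few transcript reads ACTL6B was below the minimum set for unannotated exons, a gene mean of 20. At that minimum the knockdown called 8 of 163 loci (4.91%). Of 1020 unannotated introns it called 13 (1.27%). No locus or intron of the 9 genes reached the minimum, so none of theirs could be called. At a minimum of 5, chosen after the data were seen, the exon rose by 80.0 points with the knockdown (Fisher's exact test, p = 0.0476, adjusted p = 0.319 over 328 loci) and by 54.1 points with azacytidine present (p = 0.00416, adjusted p = 0.0802). It passed in neither pair after adjustment. In the test over all internal exons its adjusted p was 0.468 and 0.157. Only unannotated transcripts hold the exon. It reached the minimum numbers of reads through the knockdown libraries, where it is high, so these p-values are not separate support.

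The forms with the exon are BambuTx5104, with 15 exons (0, 1, 1 and 5 reads across the control, knockdown, azacytidine and combined libraries), BambuTx10206 (0, 1, 0 and 2) and BambuTx10207 (0, 1, 0 and 0). Their estimated counts are fractions, which sum to 0, 3.8, 1.2 and 6.4. The annotated ENST00000160382.10 had 4, 1, 11 and 4 reads. A further unannotated form, BambuTx5103, lacks the 77-base exon at chr7:100655803-100655879 and had 4 reads, all in the azacytidine library.

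The level of ACTL6B went with azacytidine. It had 5, 5, 31 and 17 reads across the control, knockdown, azacytidine and combined libraries, or 8.07, 7.3, 62.7 and 35.1 CPM. Both azacytidine libraries were above both others. The azacytidine log2 ratio was 2.84 (95% interval 1.58 to 4.68) and, with the knockdown, 2.17 (0.77 to 4.06), but the mean of 14.5 reads was under the minimum of 20. With a minimum of 5 reads the gene was called (exact binomial test, adjusted p = 7.59e-06 and 0.004). The knockdown ratios were −0.14 and −0.82 with intervals that include 0, so a fall could not be seen at this depth.

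Of 26 further BAF subunits 24 were tested. With the knockdown, ACTB, which is also the main cytoskeletal actin, was called lower (−1.59 and −2.06), and the ATPase SMARCA4 (0.61 and 0.56) and the core subunit SMARCC2 (0.64 and 0.61) rose. With azacytidine PHF10, a subunit of progenitor complexes, was called lower (−1.34 and −1.27), its neuronal counterpart DPF1 rose (1.05 and 0.95), and SMARCC1 fell (−0.58 and −0.37). ACTL6A, the subunit that ACTL6B replaces, had 30, 31, 18 and 15 reads and passed in no pair.

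**Figure D3:**
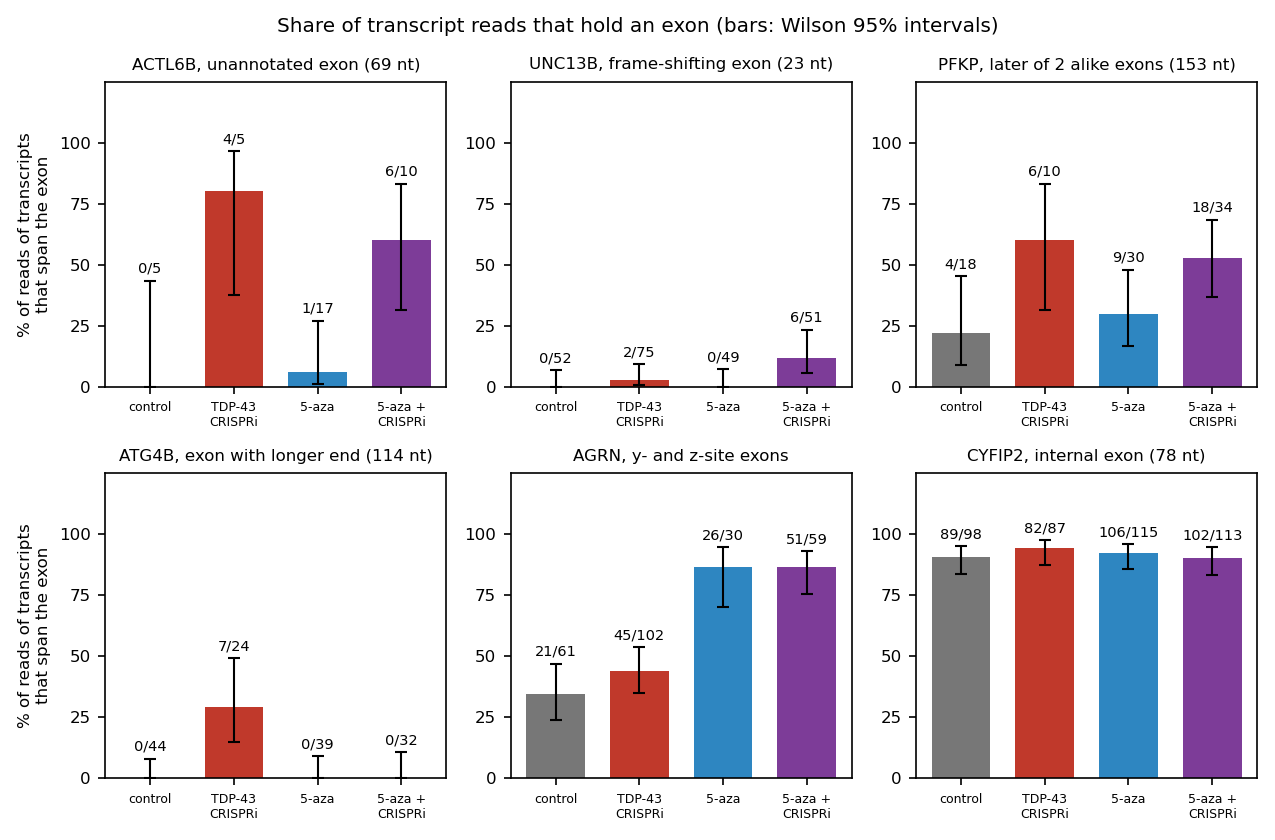
Share of spanning transcript reads, in percent, that belong to transcripts with the named exon, for 6 genes and 4 libraries. Fractions above the bars are reads with the exon over spanning reads, and error bars are 95% Wilson intervals. The ACTL6B exon is high in both knockdown libraries, the UNC13B exon has reads only in them, and the AGRN exons are high in both azacytidine libraries.

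ATG4B, a cysteine protease that trims and releases the ATG8 proteins of the autophagosome, was the gene of the set with a knockdown call, in the reads that no transcript took. They were 19 of 64 gene reads (29.7%, 95% Wilson interval 19.9% to 41.8%) in the control library and 49 of 76 (64.5%, 53.3% to 74.3%) in the knockdown library. They were 29 of 69 (42.0%) in the azacytidine library and 73 of 105 (69.5%, 60.2% to 77.5%) in the combined library. Both knockdown libraries stood above both others. The rise was 34.8 points without azacytidine (Fisher's exact test, adjusted p = 0.00129) and 27.5 points with it (adjusted p = 0.0139). Over all genes the median differences were 3.5 and 4.88 points, the share was higher in both pairs for 39.3% of genes whatever the test, and the knockdown called 77 of 8145 (0.945%). Azacytidine called 78 (0.958%) and 0 of the set. The smaller of ATG4B's rises ranks 66 among the 8145. Of the other 6 genes tested, UNC13B, AGRN and CYFIP2 were also higher in both pairs, without passing in either.

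**Figure D4:**
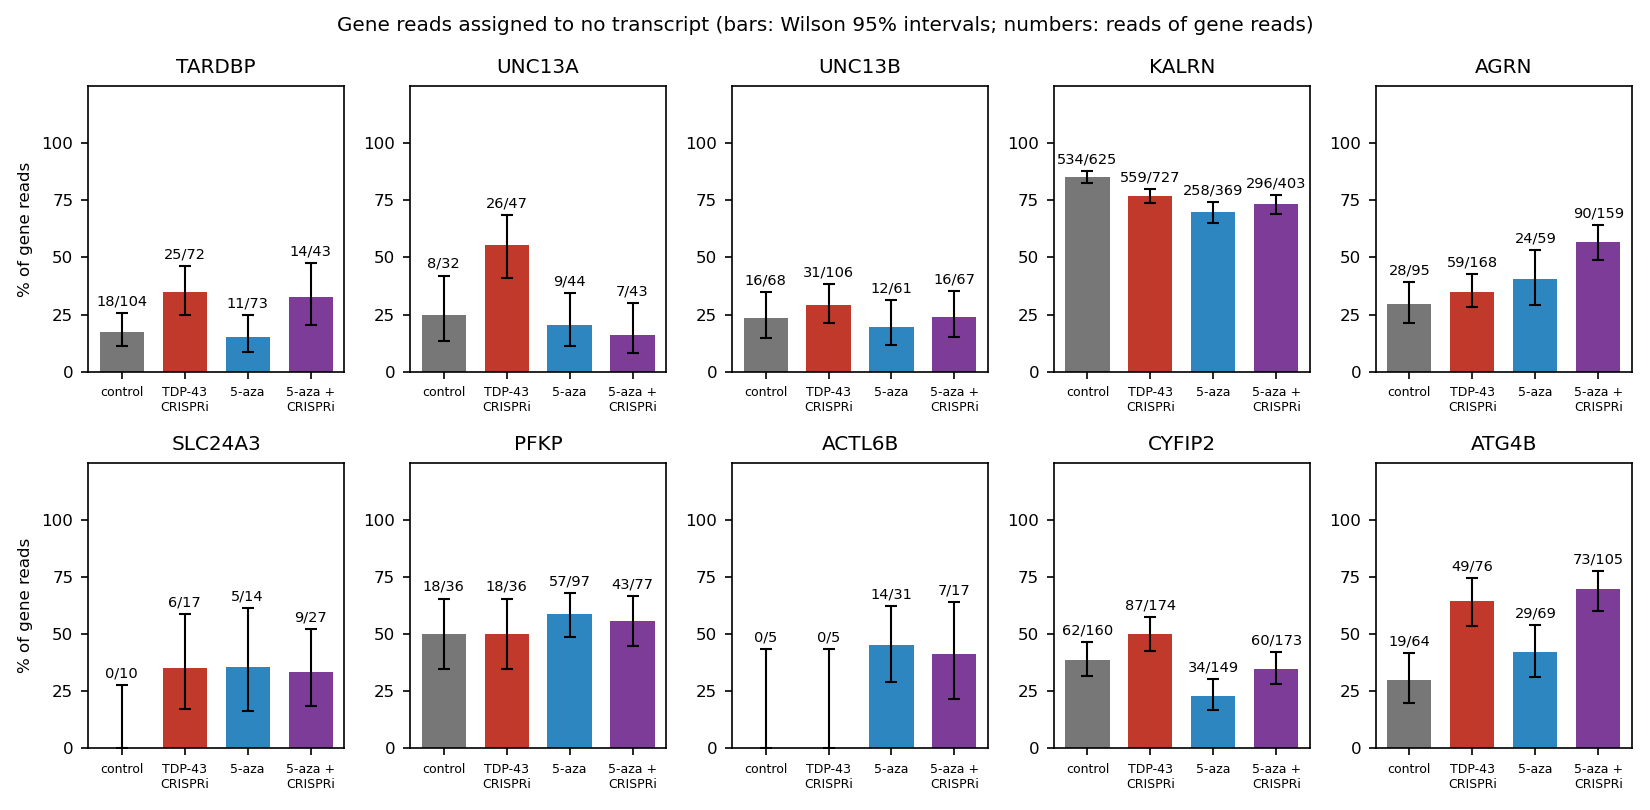
Share of gene reads assigned to no transcript, in percent of gene reads, for TARDBP and the 9 genes in the 4 libraries, with the reads behind each bar and 95% Wilson intervals. ATG4B is above 64% in both knockdown libraries and at 42.0% or less without the knockdown, and UNC13A is high in the knockdown library alone.

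The ATG4B reads counted for a transcript divided as follows. ENST00000404914.8, the main coding form, had 38 of 45 reads (84.4%) in the control library, 13 of 27 (48.1%) in the knockdown library, 34 of 40 (85.0%) in the azacytidine library and 30 of 32 (93.8%) in the combined library. The knockdown library was the low one, with a difference of −36.3 points from the control library (Fisher's exact test, adjusted p = 0.0397), and in the pair with azacytidine the share moved by 8.8 points (adjusted p = 0.891). ENST00000475693.1, a short form of 4 exons, had 3, 4, 1 and 2 reads. ENST00000405546.7 had 7 reads in the knockdown library and 0 elsewhere. That form ends an exon 20 bases further on, at chr2:241671425 in place of 241671405 (hg38, plus strand). The 114-base exon is shown between 15 bases of its neighbours, with the 20 added bases in capitals (GENCODE 29).
ATG4B: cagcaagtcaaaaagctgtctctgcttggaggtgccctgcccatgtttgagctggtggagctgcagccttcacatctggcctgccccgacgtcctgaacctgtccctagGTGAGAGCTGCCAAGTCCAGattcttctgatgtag
Reads of transcripts with the longer end were 0 of 44 in the control library, 7 of 24 (29.2%, 95% Wilson interval 14.9% to 49.2%) in the knockdown library, 0 of 39 in the azacytidine library and 0 of 32 in the combined library. Only the knockdown library without azacytidine had them, 29.2 points above the control library (Fisher's exact test over internal exons, adjusted p = 0.018). There was no difference in the other pair, so the exon is not called. It reached the minimum for exons through the knockdown library alone. The same 7 reads, counted as transcript ENST00000405546.7, missed the minimum for transcripts, so that transcript was not tested. The exon comparison was added after the data were seen, and its p-value is not separate support. Of uniquely assigned reads in the knockdown library, 2 of 5 had the longer end.

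The level of ATG4B was 64, 76, 69 and 105 reads across the control, knockdown, azacytidine and combined libraries, or 103, 111, 139.6 and 217 CPM. The combined library was the highest and differed from the azacytidine library below it (exact binomial test, adjusted p = 0.0369), while the others did not differ from their neighbours (adjusted p = 0.294 and 0.875). The knockdown log2 ratio was 0.10 (adjusted p = 0.875) without azacytidine and 0.63 with it. The second was 0.57 with an adjusted p of 0.0713 under scaling by total gene reads. Summed over uniquely assigned transcript reads, which leave out the reads in no transcript, the knockdown ratios were −1.54 and −1.09 and were not tested. Of 17 further genes of ATG8 processing 11 were tested, and 0 passed in both pairs of either treatment. Over all genes, 2.77% rose and 0.749% fell with the knockdown, and 6.31% and 9.96% with azacytidine.

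**Figure D5:**
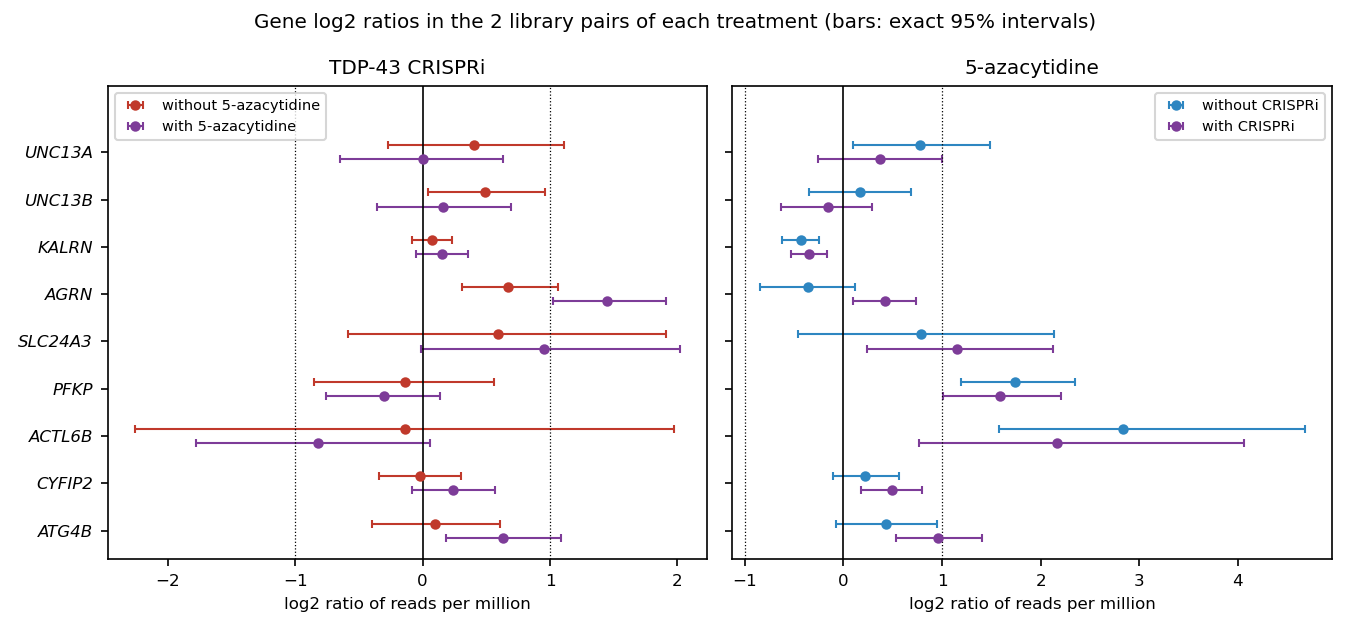
Log2 ratio of CPM in both library pairs of each treatment, with exact 95% intervals for counting error, and dotted lines at the size threshold of 1 in either direction. With the knockdown, AGRN lies above 0 in both pairs, and with azacytidine PFKP and ACTL6B lie above 1 in both.

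Other reported TDP-43 targets gave the frame for these genes. Of 24 such genes 21 were tested. With the knockdown SETD5 (0.30 and 0.52), a chromatin regulator, and ARHGAP32 (0.91 and 0.96) rose, ELAVL3, a neuronal RNA-binding protein, fell (−0.53 and −0.49), and 0 were called. With azacytidine 5 rose and 2 fell, beside 6.31% and 9.96% of all genes, and 9.8% of all genes were called. RAP1GAP (1.62 and 2.29), which switches off Rap, and the adhesion protein IGLON5 (1.16 and 1.29) were called higher, and GPSM2 (−1.16 and −1.57), which orients the mitotic spindle, lower. The knockdown raised AGRN among the 7 tested genes of the set, and SETD5 and ARHGAP32 among the 21, beside 2.77% of all genes. It lowered ELAVL3 among the 21, beside 0.749% of all genes, and called 0.97% of all genes.

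The genes whose levels over the 4 libraries were nearest to each of the 7 were found by the distance between centred log2 CPM. Nearest to AGRN were GARS1-DT (distance 0.169), ACOT7 (0.184) and CACNA1A (0.2). Nearest to PFKP were PHF1 (0.089), NRSN2 (0.1) and SHMT2 (0.173). For UNC13A they were ATP1B1 (0.053), LRP1 (0.06) and HADHA (0.074), and for UNC13B LINC00938 (0.024), ACAD11 (0.047) and USP32 (0.048). For KALRN they were PSMF1 (0.031), WDFY2 (0.057) and UBE3A (0.063), for CYFIP2 TBC1D13 (0.024), NARF (0.025) and ELOA (0.044), and for ATG4B CHST10 (0.075), DIRAS1 (0.087) and WASHC1 (0.089). With only 4 libraries, close distances are easily found among 8145 genes.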

How the data were processed

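Gene and transcript reads were measured in 4 libraries, 1 per group, with groups from the treatment labels. Per the file headers, the authors aligned reads with minimap2 to hg38, and the annotation names Bambu, which adds unannotated transcripts and divides reads among transcripts; versions are not given in the sources used here. The deposited gene and transcript tables hold estimated (expected) counts, with further deposited tables of full-length estimated counts and of counts assigned to 1 transcript alone. Every value was even, so 2 counts were taken as 1 read and all were halved and rounded. The labels do not say why. Reads in no transcript are gene reads minus transcript reads.

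Genes averaging 20 or more reads were tested between 2 libraries with the exact binomial test (two-sided) on TMM effective sizes (edgeR 4.0.16), with a pseudocount of 0.5 in log2 ratios. Transcripts, unannotated loci and introns, internal exons (at least 5 reads with and 5 without) and reads in no transcript were compared by two-sided Fisher's exact tests. A feature call needed an adjusted p under 0.05, 10 percentage points and 1 direction in both pairs. Transcripts, loci and introns needed 10 reads in total and a gene mean of 20 transcript reads. Adjustment (Benjamini-Hochberg) covered all features tested. The internal-exon and no-transcript comparisons were added after the data were seen. For the knockdown, the pairs were knockdown with control and combined with azacytidine. For azacytidine, they were azacytidine with control and combined with knockdown. Wilson intervals, exact intervals and the limit for a zero (3 reads) reflect counting alone, as PCR copies are not independent molecules. Scripts were tested on simulated data.

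The genes and lists were chosen with earlier results of these data known. Named were each of the 9 genes, TARDBP, list genes called, and at most 4 others per list that passed in both pairs. Alternatives were other scalings, filters, pseudocounts, thresholds, count types, no halving, and additive models in edgeR and DESeq2 1.42.0. Of 116 transcripts of the set shared with GENCODE 29, 101 had the same exons. The sequence of the unannotated ACTL6B exon is not reported here. Some results of the gene lists are not reported here.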

Additional observations from a re-analysis of the deposited data

Results flagged for a closer look

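For 2 transcripts the knockdown changed the share in opposite directions in the library pairs without and with azacytidine, each time past the test's threshold in both. PFKP transcript ENST00000381072.5 moved by 44.4 percentage points without azacytidine and by −25 points with it. AGRN transcript ENST00000620552.4 moved by −16.4 points (Fisher's exact test, adjusted p = 0.000572) and by 24.6 points (adjusted p = 0.0164), from 11, 0, 0 and 17 reads for control, knockdown, azacytidine and both treatments. Uniquely assigned reads of the AGRN transcript were 0, 0, 0 and 1 in that order, and the PFKP transcript had none. Almost all of these reads therefore fit several transcripts. The difference between the pairs was not tested for either transcript, and the cause was not tested.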

How the results depend on the processing

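No paired analysis was possible because the groups share the replicate number 1 alone. Of the values for single genes and features, 24 reversed, 16 newly passed the threshold, 13 no longer passed it and 531 kept direction and side; of counts and shares that answer a comparison, 44 moved by over 1.5 times or 1 interval and 104 did not. Where no value is named as the reason, the cause was not tested.

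Scaling by total gene reads reversed the knockdown ratios without azacytidine of KALRN (−0.15) and ATG4B (−0.12) and the azacytidine ratio with knockdown of UNC13B (0.03). DESeq2's size factors reversed KALRN (−0.03, knockdown without azacytidine). Filters at a mean of 5 reads or none called 2 of the 9 genes with azacytidine, adding ACTL6B. A log2 threshold of 0.5 called 259 genes with the knockdown, 1 of them of the set (AGRN), and 1280 with azacytidine. The additive edgeR model called 3 genes with the knockdown, with 749 at an unadjusted p under 0.05, and the DESeq2 model 9, and 274 with azacytidine with 0 of the set.

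Sums of uniquely assigned reads, which keep fewer reads, called 11 genes with the knockdown and 129 with azacytidine (0 of the set). They reversed the knockdown ratios of PFKP (0.42 without, 0.61 with azacytidine) and ATG4B (−1.54, −1.09), and the azacytidine ratios of KALRN (0.82, 0.04), SLC24A3 (−0.08) and ATG4B (−0.02) without and UNC13B (0.57) with knockdown. They called 4 transcripts, 1 locus, 0 introns and 1 internal exon with the knockdown, and 11, 0, 0 and 8 with azacytidine (0 of the set), and reversed KALRN ENST00000682506.1 (−3.4 points, knockdown with azacytidine).

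Full-length reads called 7 genes with the knockdown and 18 with azacytidine (0 of the set). They reversed PFKP (1.52), ACTL6B (0.93) and ATG4B (−0.16) with the knockdown without azacytidine. With azacytidine they reversed KALRN (0.38) and ATG4B (−0.34) without and UNC13B (0.59), PFKP (−1.3) and ATG4B (−0.15) with knockdown, and the UNC13B exon of 57 bases (11.4 points, knockdown with azacytidine; −6.7, azacytidine without knockdown). They called 3 transcripts, 1 locus, 1 intron and 0 internal exons with the knockdown, and 9 transcripts and 3 internal exons with azacytidine (0 of the set). The CYFIP2 unannotated share became 50% in the knockdown and 35.0% in the azacytidine library.

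Counts not halved called 420 transcripts, 15 loci and 53 introns with the knockdown and 668, 6 and 25 with azacytidine. A minimum of 10 transcript reads left 1 transcript of the set called with azacytidine, a 5-point threshold called 4 introns with azacytidine, and a minimum of 50 gene reads called the share of reads in no transcript of CYFIP2 (1 of the set) with azacytidine. Depth limits all of this: ACTL6B and SLC24A3 had under 20 reads on average.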
